A study of Mus musculus with 90 samples.

Results

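The effect of adding 2-methyl-thio-ATP (2MA) to lipopolysaccharide (LPS) for 1 h was measured in RAW 264.7 cells, a mouse macrophage-like line that came from a virally induced tumour. The 12 of 90 arrays compared here were those labelled LPS+2MA or LPS at 1 h, with 3 sets for each treatment and 2 arrays, of opposite dye, in each set. The LPS cells received LPS at 100 ng/ml with lipid binding protein at 100 pM, and the LPS+2MA cells received LPS at 100 ng/ml and 2MA at 500 µM. Every array carried RNA of treated cells against RNA of untreated cells in media of the same time, and values are log2 ratios of treated over control. Cells given 2MA alone (500 µM) and cells given LPS (100 ng/ml) with the cytokine interferon gamma (IFG, 5 nM), both for 1 h, and the LPS+2MA and LPS cells at 2 and 4 h served for comparison. The labels list lipid binding protein for LPS alone and not for either combination, so an effect of 2MA and an effect of leaving out that protein cannot be told apart in the comparison with LPS.

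LPS, a glycolipid that coats Gram-negative bacteria, is recognised by macrophages through Toll-like receptor 4 with its partners MD-2 and CD14, to which LPS-binding protein delivers it. The receptor signals through NF-kB, the mitogen-activated protein kinases and interferon regulatory factors, and it turns on cytokine, chemokine and immediate early genes. Extracellular nucleotides such as ATP are read by ion channels of the P2X family and G protein-coupled receptors of the P2Y family, which raise intracellular calcium. 2MA is an ATP analogue, methylthio-substituted on the adenine ring, that is widely used as an agonist of P2 receptors.

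A set was the mean of its dye-swapped arrays. Of 16281 probes, 13711 had enough values to be tested, and they made 11600 features, 9760 named genes and 1840 probes without a gene name. The LPS sets correlated with each other at 0.625 to 0.729 over features and the LPS+2MA sets at 0.576 to 0.79, and the means of both groups at 0.856. The 2 arrays within a set matched less well. With signs turned they correlated over probes at -0.076 to 0.38 for LPS and 0.083 to 0.435 for LPS+2MA. For 2MA alone they correlated at only -0.239 to 0.016. Features are not independent replicates. The ratio's direction is not stated and was taken as likely, since 7 of 7 genes known to respond to LPS lay above 0 with LPS (median 3.44) and with LPS+2MA (median 3.83). The labels do not say that sets were separate cultures, so p-values measure a spread between sets that may be technical. That spread was pooled over all 45 sets of the 15 conditions and is not that of the compared sets alone. Because arrays give ratios and not levels, the macrophage identity of the cells could not be checked from marker levels.

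With 2MA added, a short list of genes was higher than with LPS alone at 1 h. The named genes were the cytokine gene Il1a, the chemokine gene Ccl7, the secreted factor gene Bmp2, the transcription factor genes Nr4a1 and Klf4, and the phosphatase gene Acp5. Together with 2 probes that have no gene name these made 8 of 11600 features (0.069%) called higher, with differences of 1.18 to 2.81 on the log2 scale, that is 2.27-fold to 7.03-fold. Calls required a difference of at least 2-fold and, in limma, an adjusted p under 0.05 over all features. In a bulk sample, a change in the number of cells that carry an RNA and a change in the RNA of each cell cannot be told apart.

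No feature was called lower in this fit. Unadjusted p-values under 0.05 were found for 183 features that were higher and for 52 that were lower, and the lowest adjusted p on the lower side was 0.768. With the set number as a block these counts were 440 and 209, the lowest adjusted p on the lower side was 0.112, and again no feature was called lower. Without the block both sides together made 235 of 11600 features, less than the share of 0.05 expected where no feature differs. A feature not called is thus not shown to be unchanged. With only 0.069% of all features called, a short gene list without a call is not set apart from the rest. The most negative difference of all was -0.74, for Ets2, whereas 15 differences reached 1 or more. The median difference over all features was 0.005 and the median standard error (SE) was 0.162. The sets of both groups did not overlap for 429 features on the higher side (3.7%) and for 396 on the lower side (3.41%).

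Deviations of same-numbered LPS and LPS+2MA sets from their group means correlated at 0.119, 0.303 and 0.552. A pair of different number reached 0.263, so pairing by number was not clear for set 1. Blocking on the set number called 11 features higher (0.0948%), among them all 8. The 3 added were Klf2, Rgs16 and probe 16736. Probe 6463, Acp5 and Ccl7 also stayed called when any single set of either group was left out. Without LPS+2MA set 2, without LPS set 1 or without LPS set 2, only those 3 of the 8 remained called, and Il1a lost its call in each of the 9 runs that left out a set of one group or the same set of both.

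**Figure D1:**
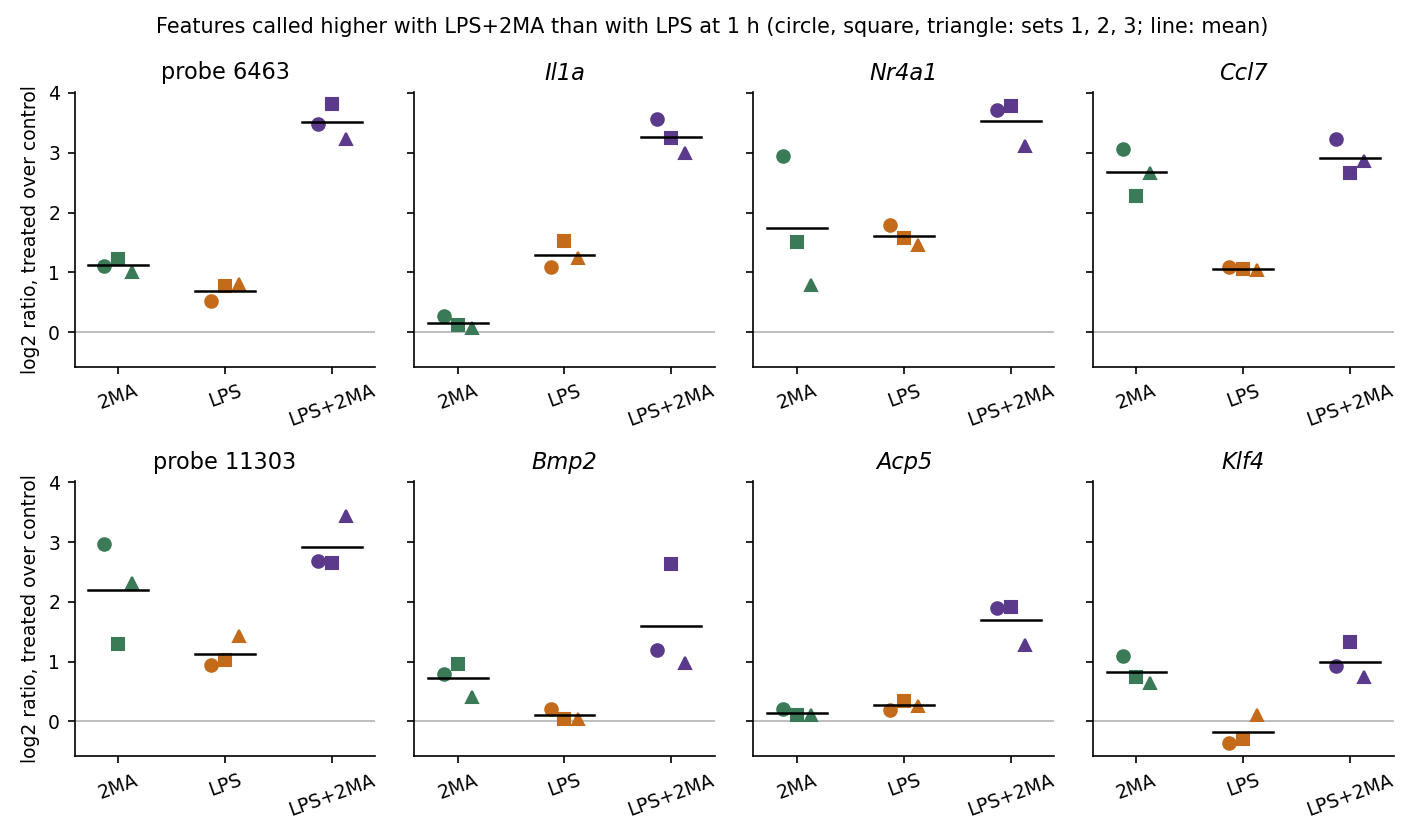
Log2 ratios of treated over control RNA at 1 h (vertical axis) for the 8 features called higher with LPS+2MA than with LPS, in cells given 2MA, LPS or LPS+2MA. Each symbol is a set, each the mean of 2 dye-swapped arrays, and each line the mean of 3 sets; in every panel the lowest LPS+2MA set lies above the highest LPS set.

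**Figure D2:**
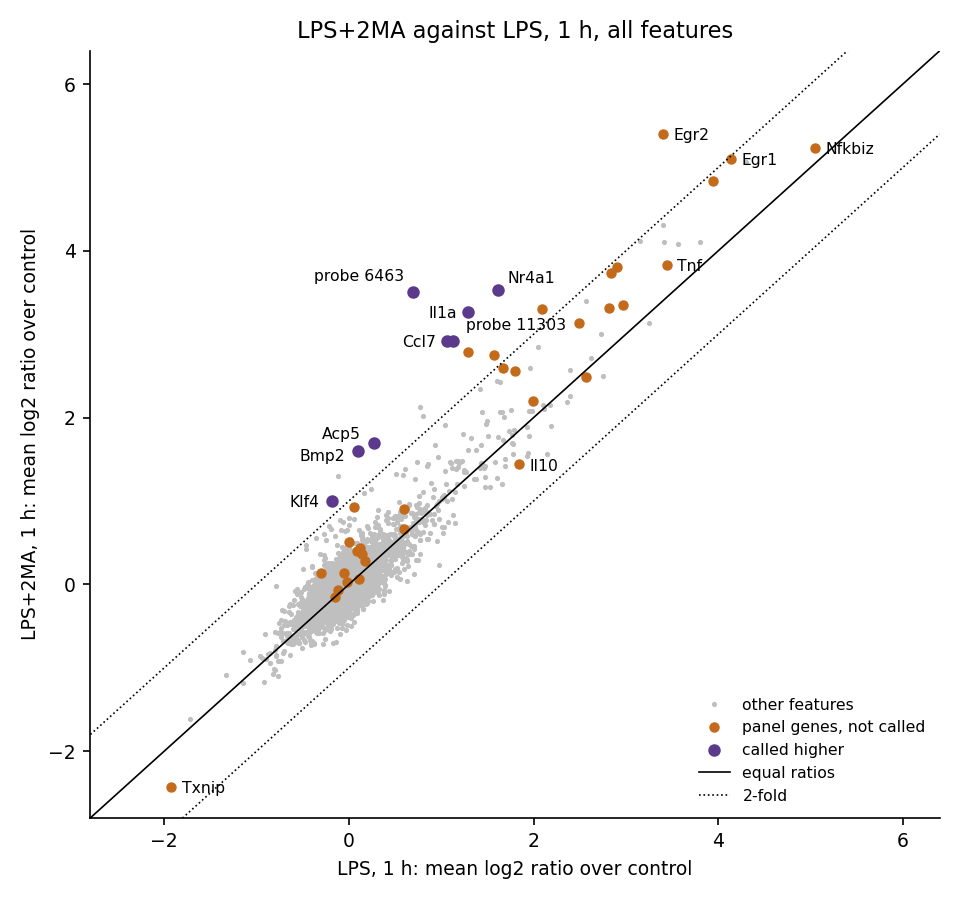
Mean log2 ratio with LPS+2MA (vertical) against that with LPS (horizontal) at 1 h for 11600 features, with the line of equal ratios and lines at a 2-fold difference. Above the upper 2-fold line lie 15 features, the 8 called ones and others not called, such as Egr2, and no feature lies below the lower one.

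Il1a encodes interleukin 1 alpha, an alarmin that signals through the interleukin 1 receptor. Its log2 ratio was 1.10, 1.52 and 1.24 in the 3 LPS sets and 3.57, 3.24 and 2.99 in the 3 LPS+2MA sets. The groups lay far apart, and 2MA alone gave only 0.28, 0.11 and 0.07. The difference was 1.98 (SE 0.41, limma adjusted p = 0.03), a 3.95-fold higher ratio. Both probes of the gene showed it, at 2.12 and 1.84.

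Ccl7 encodes a chemokine that attracts monocytes, also known as MCP-3. The LPS sets were almost identical, at 1.08, 1.05 and 1.04, and the LPS+2MA sets were 3.22, 2.67 and 2.86. In contrast to Il1a, 2MA alone already reached 3.07, 2.28 and 2.67, so that the combination and 2MA alone overlapped while LPS stood below both. The difference from LPS was 1.86 (SE 0.23, limma adjusted p = 3.57e-06). These are means of 3 probes that disagreed. Probes 13656 and 18303 differed by 2.94 and 2.64, whereas probe 9667 stayed near 0 with each treatment and differed by -0.003.

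Bmp2, a ligand of the transforming growth factor beta family best known from bone formation, was close to its control with LPS, at 0.21, 0.05 and 0.05. With LPS+2MA it was 1.19, 2.64 and 0.98, and with 2MA alone 0.79, 0.96 and 0.41. The groups did not overlap, but set 2 of LPS+2MA stood well above the other sets of its group. The difference was 1.502 (SE 0.29, limma adjusted p = 0.017), and without that set it was 0.98 (SE 0.26) and not called. Fitted on the 6 compared sets alone without a block, the difference was not called either.

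Nr4a1 encodes Nur77, an orphan nuclear receptor that cells induce within minutes of many stimuli. The LPS sets gave 1.80, 1.58 and 1.46 and the LPS+2MA sets 3.72, 3.78 and 3.11. The groups were well separated, while 2MA alone was spread from 0.78 to 2.94. The difference was 1.93 (SE 0.38, limma adjusted p = 0.0197). Its relatives Nr4a2 and Nr4a3 were not called, with differences of 0.51 (SE 0.21) and 0.20 (SE 0.20), and their LPS means were -0.002 and -0.06.

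The Krüppel-like zinc finger factors Klf4 and Klf2 both lay near or below their control with LPS. Klf4 was -0.37, -0.29 and 0.11 with LPS and 0.93, 1.33 and 0.74 with LPS+2MA, without overlap. Its difference was 1.18 (SE 0.24, limma adjusted p = 0.0279), and 2MA alone gave 1.10, 0.75 and 0.64, the last of them below the lowest set of the combination. Klf2 was -0.45, -0.30 and 0.39 with LPS and 0.67, 1.39 and 1.84 with LPS+2MA. Its difference of 1.42 (SE 0.33) was not called (limma adjusted p = 0.112) but was called with the set as a block (adjusted p = 0.00211). Of the 19 tested Id, Hes-type and Krüppel-like factors, Klf4 alone was called, and the median difference was 0.02. The 3 Id genes, whose products hold back basic helix-loop-helix factors, had negative differences from -0.33 (Id1) to -0.44 (Id2), and none passed the test.

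Acp5 encodes tartrate-resistant acid phosphatase, a lysosomal enzyme used as a marker of osteoclasts and of activated macrophages. LPS alone gave 0.20, 0.35 and 0.26, and 2MA alone gave 0.20, 0.11 and 0.10. With LPS+2MA the ratio was 1.90, 1.92 and 1.27, so that neither treatment on its own came near the combination. The difference from LPS was 1.43 (SE 0.17, limma adjusted p = 3.57e-06), or 2.69-fold. On all 6 LPS+2MA arrays the ratio was between 1.25 and 2.15, and on all 6 LPS arrays between 0.12 and 0.40.

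The largest difference of all belonged to probe 6463, which has no entry in the annotation table. It gave 0.52, 0.77 and 0.80 with LPS, 1.11, 1.23 and 1.01 with 2MA and 3.48, 3.81 and 3.24 with LPS+2MA. The difference from LPS was 2.81 (SE 0.30, limma adjusted p = 5.21e-07). Probe 11303, also unnamed, was 0.94, 1.03 and 1.43 with LPS and 2.68, 2.64 and 3.44 with LPS+2MA, a difference of 1.79 (SE 0.35, adjusted p = 0.0197). For this probe 2MA alone was spread from 1.29 to 2.97 and overlapped the combination.

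H2-Q5, a gene of the major histocompatibility complex class I region, passed the adjusted p (1.98e-05) at a difference of 0.78 (SE 0.10), below 2-fold. It is named here after its values were seen. Of its 4 probes, probes 12208 and 14911 rose by 1.51 and 1.63 when each probe was tested on its own, while the means of the other 2 were 0.27 and 0.35 with LPS and 0.28 and 0.30 with LPS+2MA. Class I genes resemble each other closely, so which of them these probes read is uncertain.

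For 4 of the 6 called genes the RefSeq table of 300-base promoter windows (build GRCm38.p6, 250 bases before to 50 after a start) held a sequence. These windows were searched on both strands for the cyclic AMP response element TGACGTCA, the AP-1 site TGANTCA, which Fos and Jun proteins bind, and the Egr site GCGGGGGCG. The 3 with a match are shown for the 250 bases before the start, 5′ to 3′ on the gene's strand, with the match in capitals.
Il1a, chr2:129309973-129310222, minus strand: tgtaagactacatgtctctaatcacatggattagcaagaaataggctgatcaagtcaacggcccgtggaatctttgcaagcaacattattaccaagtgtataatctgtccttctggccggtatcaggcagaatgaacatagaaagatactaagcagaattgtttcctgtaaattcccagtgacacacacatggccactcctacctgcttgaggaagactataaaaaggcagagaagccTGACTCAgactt
Nr4a1, chr15:101266596-101266845, plus strand: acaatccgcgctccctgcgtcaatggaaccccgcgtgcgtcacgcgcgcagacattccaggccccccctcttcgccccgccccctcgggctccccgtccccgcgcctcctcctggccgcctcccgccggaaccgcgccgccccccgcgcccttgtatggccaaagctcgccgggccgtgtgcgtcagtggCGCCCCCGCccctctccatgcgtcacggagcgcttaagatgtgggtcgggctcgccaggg
Klf4, chr4:55532476-55532725, minus strand: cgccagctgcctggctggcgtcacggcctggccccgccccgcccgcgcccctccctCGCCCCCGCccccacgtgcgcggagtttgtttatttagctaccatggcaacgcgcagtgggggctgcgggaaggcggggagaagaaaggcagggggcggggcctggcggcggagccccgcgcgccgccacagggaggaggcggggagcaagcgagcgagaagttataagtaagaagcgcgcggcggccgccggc
The Il1a match is an AP-1 site from -12 to -6 relative to the start, and the Nr4a1 and Klf4 matches are Egr sites on the opposite strand, from -60 to -52 and from -194 to -186. Among all 32851 windows, 7.81% held the AP-1 letters, 2.91% the Egr letters and 1.79% the cyclic AMP response element. The Egr letters are all G or C, and the Nr4a1 and Klf4 windows were 72.3% and 74.3% G or C. The share over windows of any composition is therefore not a like comparison for them. None of the letters were in the windows of the 3 listed starts of Acp5. A match is a description of letters and not a measured binding site.

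Immediate early genes, the first wave of transcription factors and regulators that cells make without new protein, held 2 of the calls. Nr4a1 and Klf4 were called among 35 tested, where 0.069% of all features were, and the block added Klf2 (0.0948% of all features with the block). The median difference was 0.32, against 0.005 over all features, 27 of 35 lay above 0 (51.7% of all features did), and 11 were higher without overlap between groups (3.7% of all features). Most responded to LPS itself, since 22 of 35 were called higher with LPS against control, where 1.03% of all features were. With 2MA alone 12 of 35 were called higher against control, where 0.259% of all features were.

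The early growth response genes, zinc finger factors that bind the GC-rich Egr site, had large differences with a large spread. Egr2 was 3.10, 2.68 and 4.45 with LPS and 5.77, 4.31 and 6.12 with LPS+2MA, so every numbered set was higher while the groups overlapped. Its difference of 1.99 (SE 0.65) was larger than that of Nr4a1 and was not called (limma adjusted p = 0.984, or 0.0663 with the block). One of its LPS+2MA arrays was at 6.64, the largest ratio listed on any array. Egr3 was 1.49, 1.74 and 1.47 with LPS and 3.47, 2.44 and 2.35 with LPS+2MA, without overlap, and missed the threshold at a difference of 1.19 (SE 0.31, adjusted p = 0.266). Egr1 was the highest of the 3 with LPS (mean 4.14) and differed by 0.96 (SE 0.69). With 2MA alone the means were 4.40 for Egr2, 2.09 for Egr3 and 3.81 for Egr1, each called higher than control.

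Among other members, Fos, a subunit of AP-1, was near its control with LPS, at -0.06, -0.16 and 0.40, and reached 0.53, 0.75 and 1.51 with LPS+2MA. Its difference was 0.87 (SE 0.20, limma adjusted p = 0.112). Jun, the partner of Fos, differed by 0.31 (SE 0.22). Myc, a driver of growth genes, gave 0.89 (SE 0.33), the stress factor Atf3 0.75 (SE 0.21) and the phosphatase gene Dusp1, which switches off p38 and JNK kinases, 0.90 (SE 0.34). None of these passed the test, and none of their groups overlapped except those of Jun.

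Of 8 tested inhibitors of kinase signalling (MAPK phosphatases, Sprouty and Spred genes) none were called, with a median of 0.30. Spry1, which restrains receptor tyrosine kinase signalling, had the largest difference, from 0.17 with LPS to 1.10 with LPS+2MA. Among 29 cyclic AMP and CREB response genes Nr4a1 was the only call, with a median of 0.17 and 7 members higher and 2 lower without overlap, against 3.7% and 3.41% of all features. Crem, a repressor that cyclic AMP induces, differed by 0.32 (SE 0.21), the kinase gene Sik1 by 0.11 (SE 0.19) and the phosphodiesterase gene Pde4b, whose product breaks down cyclic AMP, by -0.07 (SE 0.28). Of 20 calcium, calcineurin and NFAT genes none were called and the median was 0.03. Within that list Rcan1, an inhibitor of calcineurin, was 1.11, 1.60 and 1.16 with LPS and 3.68, 3.13 and 1.53 with LPS+2MA, where set 3 fell within the range of LPS. Its difference was 1.49 (SE 0.47, adjusted p = 0.877). With 2MA alone the Rcan1 mean was 2.30, called higher than control.

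**Figure D3:**
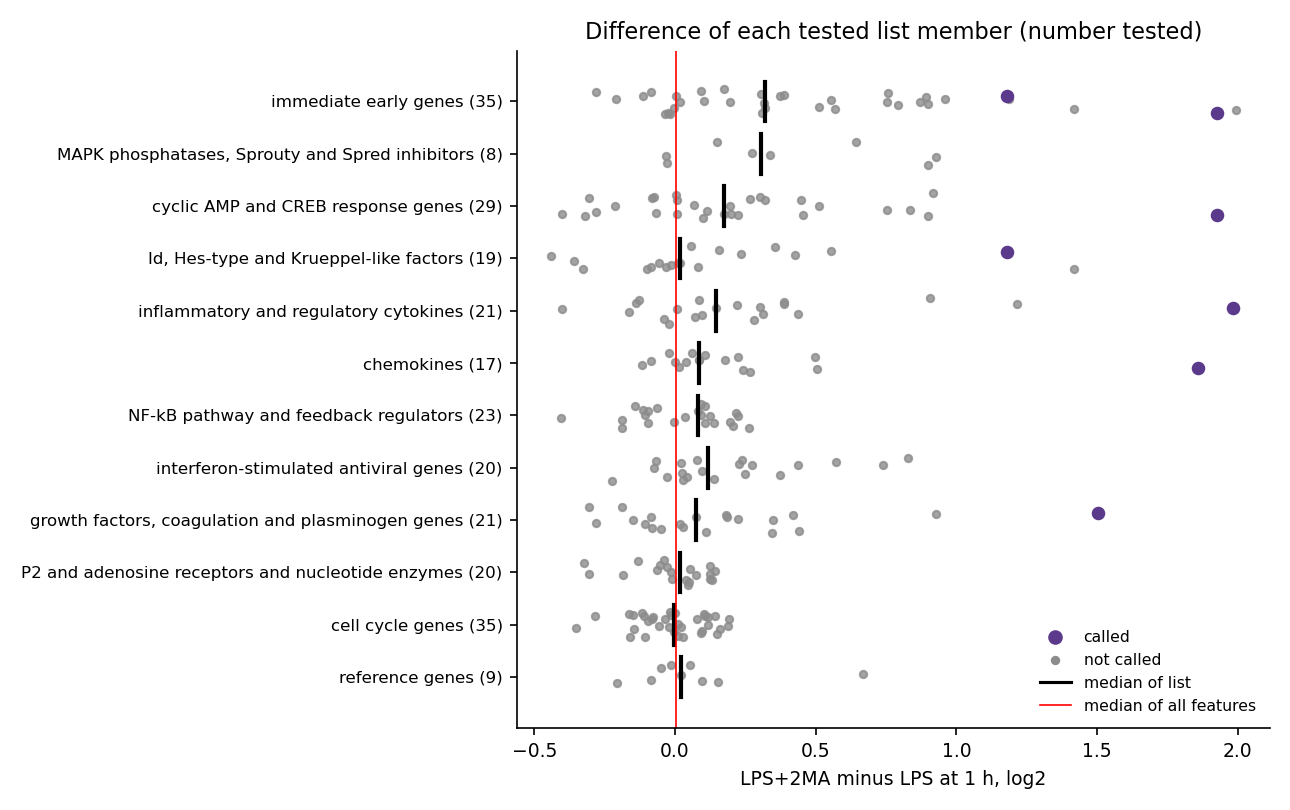
Difference between LPS+2MA and LPS at 1 h (horizontal, log2) for each tested member of 12 gene lists, the number tested in brackets, with called members in purple and the list's median as a black bar. Immediate early genes and MAPK phosphatases have medians of 0.32 and 0.30, while purine receptors, cell cycle genes and reference genes lie around the median of all features at 0.005.

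Few genes of the core inflammatory response passed the test, as did few of all features (0.069%). Tnf, the cytokine that heads this response, was 3.39, 3.04 and 3.90 with LPS and 3.72, 3.25 and 4.51 with LPS+2MA, overlapping groups with a difference of 0.39 (95% confidence interval -0.51 to 1.29). Of 21 tested inflammatory and regulatory cytokines Il1a was the only call, and the median was 0.15. Il1b, whose product shares a receptor with that of Il1a, was 3.04, 3.22 and 2.45 with LPS and 4.26, 3.37 and 3.81 with LPS+2MA. The groups did not overlap, but the difference of 0.91 (SE 0.32) was not called. The interferon beta gene Ifnb1, 2.00, 2.07 and 2.21 with LPS, was 2.60, 4.20 and 3.12 with LPS+2MA, and its difference of 1.21 (SE 0.41) was not called either.

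Il10, whose product restrains macrophages, had a negative difference, at 1.83, 2.01 and 1.69 with LPS and 1.40, 1.37 and 1.55 with LPS+2MA, and its difference of -0.40 (SE 0.27) was not called. Il6 (0.22, SE 0.27), Il12b (0.44, SE 0.18) and Csf2 (0.31, SE 0.35) had LPS means between -0.30 and 0.14, that is near their control at 1 h. Ptgs2, which encodes the inducible cyclooxygenase, was 1.11, 1.93 and 1.97 with LPS and 2.61, 2.75 and 2.42 with LPS+2MA, a difference of 0.93 (SE 0.41) that was not called. Nos2, the inducible nitric oxide synthase gene, was near 0 with both.

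None of 23 tested NF-kB pathway and feedback genes were called, where 0.069% of all features were, so the lack of a call says little about this list. Their differences ran from -0.41 (Bcl3) to 0.26 (Relb). None were without overlap, against 3.7% of all features on the higher and 3.41% on the lower side. Their median was 0.08, or -0.04 when the spread of all arrays was made equal. Nfkbiz, an inducible nuclear partner of NF-kB, was among the highest ratios with LPS (mean 5.05) and differed by 0.19 (95% confidence interval -0.54 to 0.92). Tnfaip3, a ubiquitin-editing brake on NF-kB, differed by 0.21 (SE 0.25), and the interferon regulatory factor gene Irf1 by 0.07 (SE 0.26). Of 20 interferon-stimulated antiviral genes none were called (median 0.12), and Ifit3 had the largest difference, 0.83.

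Ccl7 was the only call among 17 tested chemokines, whose median difference was 0.09. Ccl4, a chemokine for monocytes and T cells, was 2.80 and 2.84 in the 2 LPS sets with a value and 3.29, 3.46 and 3.20 with LPS+2MA, a difference of 0.50 (SE 0.30) that was not called. Several of the best known early chemokine and feedback genes could not be tested, because exact zeros, treated as missing, removed sets. For Ccl2, a close relative of Ccl7, the values left were 2.11 and 2.62 from one probe and 1.95 and 1.90 from the other with LPS, and no LPS+2MA set had a value. The same held for Cxcl2, a neutrophil chemokine at 4.98 and 4.00 in the 2 LPS sets with a value. Nfkbia, which encodes the NF-kB inhibitor that LPS induces first, had 1.92 and 2.02 with LPS and a single LPS+2MA set at 2.61. Cxcl10, an interferon-induced chemokine, entered when only the compared groups had to have values, and it then differed by 0.77 (SE 0.28, limma adjusted p = 1). Over the array, 28 probes had at least 2 LPS sets and 0 LPS+2MA sets, and 30 the reverse.

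Of 20 tested P2 receptor, adenosine receptor and nucleotide enzyme genes none were called, the median was 0.02 and differences ran from -0.33 (P2ry2) to 0.14 (P2rx6). The channel genes P2rx4 and P2rx7 differed by -0.04 (SE 0.14) and 0.05 (SE 0.15). Txnip, which encodes a thioredoxin-binding protein that restrains glucose uptake, was -2.01, -1.57 and -2.20 with LPS and -2.40, -2.44 and -2.43 with LPS+2MA. The groups did not overlap, and the difference of -0.50 (SE 0.30) was not called.

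In the 35 tested macrophage receptor and identity genes (median 0.01) and in 57 tested markers of T, B, natural killer, myeloid granule and stromal or epithelial cells, no gene was called. Of 9 reference genes none were called either, with differences from -0.21 (Actb) to 0.67 (Polr2a). In the remaining lists the single call was Bmp2, among 21 growth factor, coagulation and plasminogen genes. The G protein regulators added Rgs16, which speeds the switching off of G proteins, with the block only. Rgs16 was 0.75, 1.05 and 0.52 with LPS and 2.61, 2.53 and 1.25 with LPS+2MA, a difference of 1.36 (SE 0.38, limma adjusted p = 0.456, or 0.0294 with the block). With 2MA alone the Rgs16 mean was 1.93, called higher than control.

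Cells given 2MA alone showed which of these genes responded without LPS. In all, 30 features were called higher with 2MA against control (0.259%), compared with 133 with LPS+2MA (1.15%). Among the 8, Ccl7, Nr4a1, probe 6463 and probe 11303 were called higher with 2MA alone, and Il1a, Bmp2, Acp5 and Klf4 were not. Klf4 was not called because its ratio of 0.83 was under 2-fold. Bmp2 was also under 2-fold, at a mean of 0.72 (limma adjusted p = 0.0671, or 0.0189 with the block). Il1a and Acp5 were nearer to control, at means of 0.155 and 0.137. Against the sum of both single treatments, the combination was called higher for 1 feature, Acp5 (0.00862%), at 1.70 against a sum of 0.40. That excess was 1.29 (SE 0.21, limma adjusted p = 0.00551), and it was not called without LPS+2MA set 2. Lipid binding protein is listed for LPS alone, so an effect of leaving it out cannot be told apart from such an excess. H2-Q5 exceeded its sum by 0.71 (SE 0.13, adjusted p = 0.0139), below 2-fold.

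Probe 6463 and Il1a exceeded their sums by 1.70 (SE 0.37) and 1.83 (SE 0.50) without being called in the fit without a block. For the other 5 the combination less the sum ran from -0.81 (Ccl7, SE 0.28) to 0.78 (Bmp2, SE 0.35), and none were called. For several strong LPS genes the mean of the combination was below the sum, as for Nfkbiz (5.24 against 7.38), Egr1 (5.10 against 7.96), Myc (3.73 against 5.38) and Tnf (3.83 against 5.51), none of them called in that fit. For Nfkbiz, Egr1 and Egr2 the sum lay above 6.64, the largest ratio listed on any array. Whether the treatments shared control RNA is not stated in the labels.

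**Figure D4:**
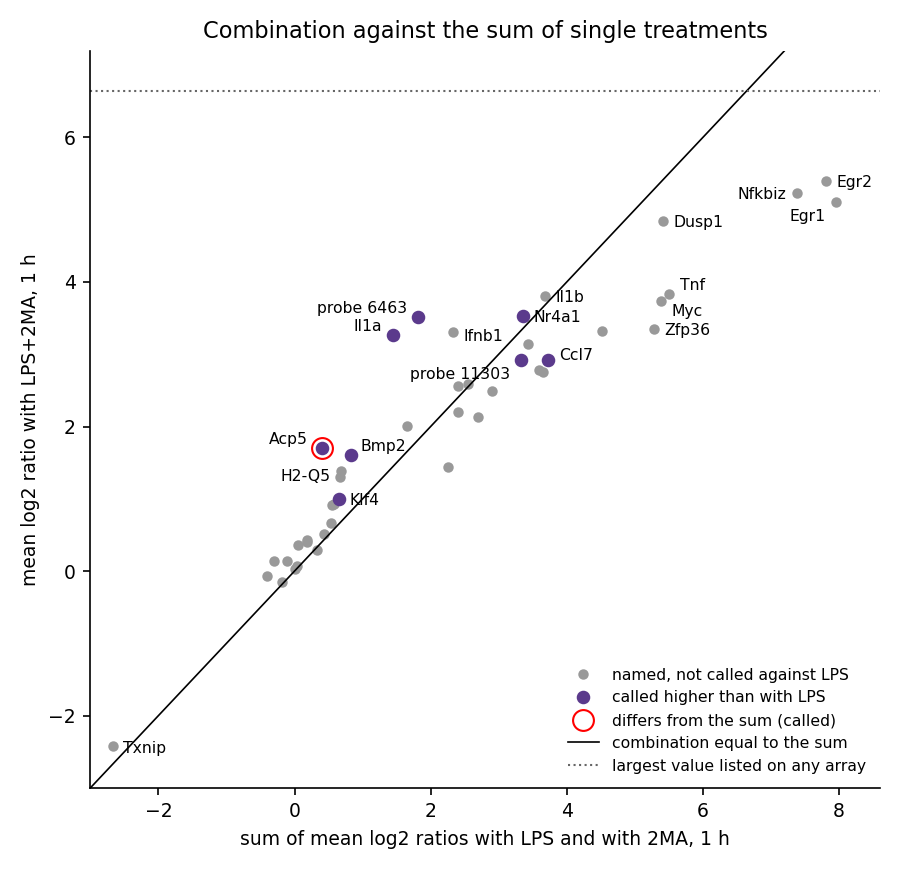
Mean log2 ratio with LPS+2MA (vertical) against the sum of the mean log2 ratios with LPS and with 2MA (horizontal) at 1 h for the 45 named features, with the line of equality and, dotted, the largest ratio listed on any array (6.64). Acp5, ringed, was called above its sum; Egr1, Egr2 and Nfkbiz have sums beyond the dotted level.

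The same difference was followed to later times. It was called for 3 features at 2 h (0.0259%; 11 with the block, 0.0948%) and for 13 at 4 h (0.112%), and each of these was higher with LPS+2MA. Acp5 differed by 1.36 (SE 0.17) at 2 h and 1.51 (SE 0.17) at 4 h, called at both times, and its LPS mean was 0.27 at 1 h and 0.91 at 4 h. Probe 6463 was called at both times as well, at 2.65 and 1.33 (SE 0.30 each). The third call at 2 h was Tslp, the cytokine gene of thymic stromal lymphopoietin, which had differed by 0.09 at 1 h.

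Ccl7 was 2.89 with LPS and 3.25 with LPS+2MA at 2 h, and its difference was 0.36 (SE 0.23) at 2 h and 0.26 (SE 0.23) at 4 h. Nr4a1 was 0.27 with LPS and 1.70 with LPS+2MA at 2 h and -0.29 and -0.07 at 4 h, with differences of 1.43 and 0.22. Klf4 differed by 0.69 at 2 h and -0.15 at 4 h. Il1a was higher in both groups than at 1 h, at 3.40 with LPS and 5.05 with LPS+2MA at 4 h, a difference of 1.65 (SE 0.41, limma adjusted p = 0.0731, or 0.0062 with the block). Bmp2 differed by 1.22 at 2 h and 0.98 at 4 h, and its LPS means were 0.19 and 0.16.

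Tested directly, the difference at 4 h less that at 1 h was called for 0 features (0%) by limma, with 335 at an unadjusted p under 0.05. That was again less than a share of 0.05 of the 11600 features. With the set as a block, 422 features with a larger difference at 4 h and 432 with a smaller one had such a p. Together these were more than that share. In the fit with the block 6 features were called with a larger difference at 4 h (0.0517%) and 3 with a smaller one (0.0259%). Ccl7 was among the latter, at -1.60 (SE 0.29, adjusted p = 0.00984). For Nr4a1 the change of -1.71 (SE 0.54) was not called in either fit, nor was that of 0.08 (SE 0.24) for Acp5.

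**Figure D5:**
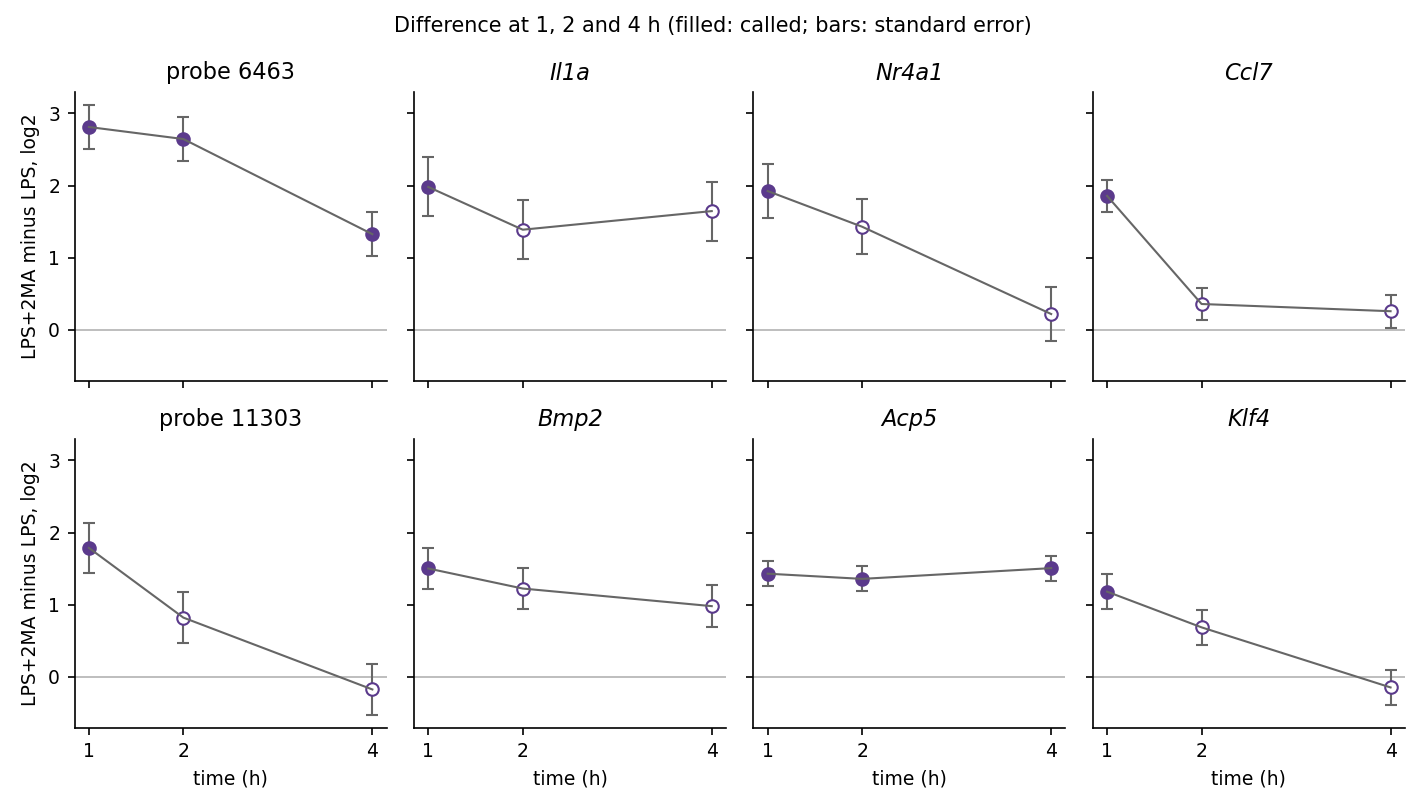
Difference between LPS+2MA and LPS (vertical, log2) at 1, 2 and 4 h for the 8 features, with bars of 1 standard error and filled circles where the difference was called. Acp5 and probe 6463 are called at all 3 times, whereas Ccl7 is 1.86 at 1 h and 0.36 at 2 h.

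LPS+IFG at 1 h served as a second reference, because it too is listed without lipid binding protein; it differs from LPS+2MA in the second agent. Between these combinations 27 features were called higher with LPS+2MA (0.233%) and 67 lower (0.578%), and LPS+2MA is common to this comparison and that with LPS. The 8 features were chosen for high values on these LPS+2MA arrays, so calls here are not independent of that choice. Of the 8 features, 7 were also called higher than with LPS+IFG. The differences were 3.23 for probe 6463, 2.75 for Nr4a1, 2.37 for probe 11303, 1.77 for Ccl7, 1.57 for Acp5, 1.504 for Bmp2 and 1.18 for Klf4, with SE between 0.17 and 0.38. Il1a was the exception, at 2.07, 2.49 and 2.68 with LPS+IFG, between the groups of LPS and LPS+2MA, with a difference of 0.86 (SE 0.41, limma adjusted p = 1). Mean ratios with LPS+IFG were below those with LPS for Nr4a1 (0.788 against 1.61), probe 6463 (0.275 against 0.695) and probe 11303 (0.555 against 1.132). For Ccl7 the LPS+IFG mean was above that of LPS (1.145 against 1.059). Irf1, an interferon gamma target that LPS+2MA left at 0.66, had a difference from LPS+IFG of -3.20 (SE 0.26) and was called lower.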

How the data were processed

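The authors deposited 1 value table of log2 ratios per array; the upstream scanner, background and normalization steps are not given in the sources used here, nor are slides or scans. The log2 ratios ran from -6.57 to 6.64, exact zeros (8.38 to 12.3% of probes on the 12 arrays) were treated as missing, and the sign of arrays with treated RNA in Cy3 was turned. A set was the mean of its 2 arrays; a probe needed 2 of 3 sets in each condition, and probes of 1 gene were averaged (13738 probes had 1 gene, 52 several). limma 3.58.1 in R 4.3.3 fitted 45 sets of 15 conditions without a block (30 residual degrees of freedom), with Benjamini-Hochberg adjustment over all 11600 features; it was tested on simulated data. Figures and promoter searches used Python 3.11.15. Deviations of same-numbered LPS and LPS+2MA sets correlated at 0.119, 0.303 and 0.552 at 1 h, and at 0.151 to 0.73 at later times. Those of different-numbered sets at 1 h ran from -0.564 to 0.263, the latter above the 0.119 of set 1. In the block the numbers were taken to pair the sets of all conditions of a time, although the labels do not say so. Named genes were the called features, those called with the block and a panel of 45 genes, 36 of them tested. The members and lists were chosen with earlier results of these data known. The number of arrays limits the precision. Alternatives covered the block, scaling, zeros, filters, probes, dyes, thresholds and left-out sets.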

Additional observations from a re-analysis of the deposited data

Results flagged for a closer look

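For Acp5 and H2-Q5, LPS+2MA less LPS less 2MA differed from 0 by limma's test. Lipid binding protein is listed for LPS alone, so an effect of leaving it out cannot be told apart from that of 2MA here. For Acp5 the excess was 1.29 (SE 0.21, adjusted p = 0.00551), and it was not called without LPS+2MA set 2. For H2-Q5 it was 0.71 (SE 0.13, adjusted p = 0.0139), as a mean of 4 probes that disagreed. Groups of 3 sets were not tested for outlying sets, though each set of the compared groups was left out in turn.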

How the results depend on the processing

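The 8 calls at 1 h became 11 with the replicate block over 45 sets, 13 with it in the 6 compared sets alone, 4 with zeros kept as values, 14 with each probe on its own, 15 with all 90 arrays and a dye term, 3 with treated RNA in Cy3 only and 3 at an adjusted p under 0.01. Leaving out sets gave 3 to 8 calls, with 3 without LPS+2MA set 2, LPS set 1, LPS set 2 or set 2 of both groups. Acp5 and probe 6463 kept their calls in all 24 alternatives; Ccl7 lost its call, at -0.003, only by its flat probe. Against the sum of single treatments 1 call became 7 with the replicate block (Acp5 and probe 6463 higher, Nfkbiz, Egr1, Myc, Zfp36 and Sertad1 lower). It became 9 with Cy5 and 2 with Cy3 only, and 0 to 2 with a set left out, 0 without LPS+2MA set 2. The block also takes equal numbers to pair the 2MA sets with the others of that time, which the labels do not state. Deviations of same-numbered sets correlated at -0.03 to 0.482 for LPS+2MA with 2MA and at 0.207 to 0.506 for LPS with 2MA. The 3 calls at 2 h became 11 with the block. The 13 at 4 h became 3 with array spread scaled and 5 with either dye. The 0 calls of 4 h less 1 h became 9 with the block, and 0 to 1 with a set left out, 1 without LPS+2MA 4 h set 3. The causes were not tested. At 1 h the block also took the features with an adjusted p under 0.05 of any size from 9 to 22. The block moved the calls at 1 h, at 4 h and against LPS+IFG by less than 1.5 times.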

Other observations

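With the set as a block, limma also gave adjusted p-values under 0.05 to genes that were higher with LPS+2MA than with LPS at 1 h by less than 2-fold, named here after their values were seen. Among them were Ralgds, an exchange factor for Ral proteins (difference 0.89), Adamts1, a secreted metalloprotease (0.88), Srgn, the granule proteoglycan serglycin (0.73), Rgs2, a regulator of G protein signalling (0.92), and Ptpn22, a tyrosine phosphatase of immune cells (0.88).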
